A study of Mus musculus with 12 samples.

Results

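The 10 genes described here encode subunits of Polycomb repressive complex 2 (PRC2). They are the core genes Eed, Ezh1, Ezh2, Suz12, Rbbp4 and Rbbp7 and the accessory genes Jarid2, Mtf2, Phf1 and Phf19. They were found by symbol, and each of the 10 had 1 promoter window among the 55385 windows (55276 symbols) of the deposited tables. The tissue was forebrain of C57BL/6 mouse embryos at stage E12.5, untreated per the labels, in 2 genotypes, wild type and a genotype labelled EedcKO, a name that reads as a conditional knockout of Eed. Eed and its input came from cross-linked chromatin immunoprecipitation, in which DNA bound to a protein is pulled down with an antibody. H3K27me3, H3K27ac, RNA-Pol2 and IgG came from CUT&Tag, in which a transposase tethered to the antibody cuts the DNA beside it. Each target was measured once per genotype, which gives 12 libraries. Differences thus have no replicate check and carry no p-value. Not given in the sources used here are the Cre driver of the EedcKO genotype, the stretch of Eed that it deletes, the embryos' sex and how many embryos made up a library. A count in the Eed window therefore does not test the deletion. In whole tissue, a signal in fewer cells and a weaker signal per cell cannot be told apart.

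PRC2 places methyl groups on lysine 27 of histone H3, and the trimethylated form, H3K27me3, marks silenced developmental genes. Ezh2 and its paralog Ezh1 carry the methyltransferase domain. Eed binds H3K27me3 and stimulates the enzyme, Suz12 holds the complex together, and Rbbp4 and Rbbp7 are histone-binding proteins shared with other chromatin complexes. Mtf2, Phf1 and Phf19 are the Polycomb-like proteins and Jarid2 is a DNA-binding cofactor, and all 4 help bring the complex to chromatin. H3K27ac, acetylation of the same lysine, and RNA polymerase II mark active promoters. In the embryonic forebrain PRC2 is known for restraining the genes of other regions and later stages in progenitor cells.

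The promoters of these genes were rich in CpG. RefSeq (build GRCm38.p6) gave 12 start sites for the 10 genes, since Jarid2 and Mtf2 had 2 each. Over 250 bases before to 50 after the start, the 12 promoters had a median of 27 CpG and 64.3% G and C, against 7 CpG and 52.7% over 32851 RefSeq promoters. Suz12 had the most, 41 CpG, and the second Mtf2 start, 12491 bp downstream of the first and outside the counted window, had 2. Of the main entries Eed had the fewest, 17. Promoters are shown for Eed, Ezh2 and Rbbp4, the members with a wild type H3K27ac summit within 500 bp of the start other than Phf1. Phf19, the member with most wild type H3K27me3 counts, is also shown. Capitals mark the letters searched on both strands. GGGCGG is bound by factors of the Sp and Klf families, and the box CCAAT is bound by the factor NF-Y. The letters CCGGAA are a core shared by sites of Ets family factors. E2F factors of the cell cycle bind TTGGCGC and also the related spelling of the same length TTCGCGC. Nrf1 binds sites that hold GCGCATG.
Eed (mm10 chr7:89980927-89981226, minus strand): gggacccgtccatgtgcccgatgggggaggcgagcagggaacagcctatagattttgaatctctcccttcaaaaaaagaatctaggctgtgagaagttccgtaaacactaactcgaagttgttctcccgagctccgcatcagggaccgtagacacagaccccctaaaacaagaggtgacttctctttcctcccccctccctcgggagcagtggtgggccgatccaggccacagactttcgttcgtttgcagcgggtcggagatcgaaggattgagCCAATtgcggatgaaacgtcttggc
Ezh2 (mm10 chr6:47594981-47595280, minus strand): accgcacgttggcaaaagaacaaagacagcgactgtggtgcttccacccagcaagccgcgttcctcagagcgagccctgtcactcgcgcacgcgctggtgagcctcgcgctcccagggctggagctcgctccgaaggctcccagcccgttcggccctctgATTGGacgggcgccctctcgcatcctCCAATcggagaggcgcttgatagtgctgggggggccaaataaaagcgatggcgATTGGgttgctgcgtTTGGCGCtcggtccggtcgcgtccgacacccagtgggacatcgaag
Rbbp4 (mm10 chr4:129335321-129335620, minus strand): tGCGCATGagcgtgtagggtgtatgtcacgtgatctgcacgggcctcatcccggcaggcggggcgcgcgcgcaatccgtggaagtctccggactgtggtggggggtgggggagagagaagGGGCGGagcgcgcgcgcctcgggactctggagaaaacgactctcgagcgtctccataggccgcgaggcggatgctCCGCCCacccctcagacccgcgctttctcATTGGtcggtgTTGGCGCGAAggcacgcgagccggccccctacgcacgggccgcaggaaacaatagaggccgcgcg
Phf19 (mm10 chr2:34913927-34914226, minus strand): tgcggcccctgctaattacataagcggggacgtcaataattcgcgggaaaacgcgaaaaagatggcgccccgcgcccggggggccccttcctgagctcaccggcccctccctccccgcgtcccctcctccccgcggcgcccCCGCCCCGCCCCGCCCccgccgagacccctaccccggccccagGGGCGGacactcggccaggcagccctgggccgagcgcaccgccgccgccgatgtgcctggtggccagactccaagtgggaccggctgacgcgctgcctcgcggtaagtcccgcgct

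The 4 promoters differed in these letters. Eed had the CCAAT box 1 time and none of the others. Ezh2 had this box 3 times and 1 E2F spelling. Rbbp4 had the Sp letters 2 times, and the NF-Y box, the Nrf1 letters and both E2F spellings 1 time each. Its E2F spellings overlap on opposite strands. Phf19 had the Sp letters 4 times, of which the first 3 run into each other, and none of the others. Of the 12 promoters, 8 had the Sp letters and 8 had the NF-Y box, against 35.7% and 37.4% of all RefSeq promoters. By gene, 7 of 10 had each, and Mtf2 had the NF-Y box only at its second start. An E2F spelling stood at 2 genes, Ezh2 and Rbbp4 (3.89% of all promoters), the Nrf1 letters at Rbbp4 (3.91%) and the Ets core at the second Jarid2 start (14.9%). Ezh1 had none of these letters in this window. The members' promoters were richer in G and C than all RefSeq promoters (median 64.3% against 52.7%). No share matched for this was taken, so these counts do not show an excess of such letters. A match is a description of the sequence and shows no binding.

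The counted window of each gene spans 2 kb centred on the start site in the authors' annotation, so it covers the promoter and the first kilobase of the gene. The windows of the core genes are, in mm10, Eed on chromosome 7 from 89979983 to 89981982, Ezh1 on chromosome 11 from 101225463 to 101227462, and Ezh2 on chromosome 6 from 47594341 to 47596340. Those of Suz12, Rbbp4 and Rbbp7 lie on chromosome 11 from 79992106 to 79994105, on chromosome 4 from 129334370 to 129336369 and on chromosome X from 162759402 to 162761401. Those of the accessory genes are Jarid2 on chromosome 13 from 44728474 to 44730473, Mtf2 on chromosome 5 from 108064674 to 108066673, Phf1 on chromosome 17 from 26932052 to 26934051 and Phf19 on chromosome 2 from 34913026 to 34915025. Rbbp7 is X-linked, and with the sex of the embryos not given its number of copies per library is not known. The Jarid2 window is centred 1300 and 1797 bp upstream of both RefSeq starts, which lie outside it. The Ezh2 window is centred 311 bp upstream of its RefSeq start, which lies inside it. Windows of 4 members share reads with a neighbour. The Eed window shares 1740 bp with that of E230029C05Rik on the other strand, and the Rbbp4 window 1675 bp with that of Zbtb8os, whose start lies at -325 bp (negative is upstream) on the other strand. The Phf1 window shares 489 bp with Gm41555 and the Phf19 window 845 bp with Gm13448. Reads in the shared stretches cannot be assigned to 1 gene.

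Total promoter counts per library ran from 948955 to 3842779, and the median window held 11 to 38 counts. No member was at 0 in any library, and the lowest member count was 10. All 10 members passed the filter on low windows in each comparison. Before the histone results, the labels of both EedcKO histone libraries need care. Across 51279 windows, which share libraries and sequence composition, log2 levels in the library labelled EedcKO H3K27ac correlated at 0.918 (Pearson) to H3K27me3 of wild type but at 0.553 to its H3K27ac. For the one labelled EedcKO H3K27me3 the values were 0.582 to wild type H3K27me3, 0.790 to its H3K27ac and 0.855 to its RNA-Pol2. Both go against their labels, so histone results are given by label and with these libraries exchanged. EedcKO RNA-Pol2 was as close to the wild type library of its own target (0.847) as to wild type H3K27ac (0.850). As a check of the tissue, 7 of 7 forebrain progenitor markers, among them Sox2, were at least 2-fold above IgG in wild type H3K27me3. In wild type H3K27ac 4 of 7 were and in RNA-Pol2 2 of 7. The shares of all tested windows were 19.1%, 23.3% and 15.3%. In EedcKO RNA-Pol2 4 of 7 were, against 23.4%. Of 4 neuron markers 1 was in wild type RNA-Pol2 and 2 in EedcKO. In wild type RNA-Pol2, 1 of 4 mesenchyme and pericyte markers had such a level, in EedcKO none. All 4 had it in wild type H3K27me3, so that mark does not separate progenitor from mesenchyme markers. Wild type RNA-Pol2, with 2 of 7 and 1 of 4, does not either. No RNA-Pol2 library had it at any of 4 endothelial, 4 microglia and macrophage and 4 erythroid markers.

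In wild type forebrain, Eed was high at the promoters of its own complex. All 10 members were at least 2-fold above input, against 28.4% of the tested windows. The relative log2 ratio of Eed to input had a median of 2.70 and ran from 1.57 at Mtf2 to 3.94 at Phf19. This ratio is taken of levels in RPKM (counts scaled by window length and by the library's total promoter count) with 0.5 RPKM added, minus the median ratio of the tested windows. By library totals alone 9 of 10 were 2-fold above input, with Mtf2 at 0.25. Active promoters in general were of this kind. Of the 5683 windows with a wild type H3K27ac summit within 1 kb, 80.9% were 2-fold above input in the same comparison, with a median of 2.22, and so were 14 of 20 housekeeping genes (median 2.02).

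Among the core genes, Ezh2 held 217 wild type Eed counts, Suz12 186, Rbbp7 181, Ezh1 136, Rbbp4 126 and Eed itself 121. Input held 19 to 29 counts at the same 6 windows, so no core gene came near its input. Among the accessory genes Phf19 held 225, Phf1 137, Jarid2 98 and Mtf2 51, beside 18 to 26 in input. All windows have the same length, so counts within 1 library rank the members. The Jarid2 window holds neither of its RefSeq starts, so its place in any such order may not describe its promoter. Phf19, Ezh2, Suz12 and Rbbp7 formed the upper end, and neighbours in this order did not differ beyond counting error. The step from Rbbp7 to Phf1 was 0.40 on the log2 scale (95% interval 0.07 to 0.73), and that from Jarid2 to Mtf2 was 0.94 (0.44 to 1.46). All intervals here are exact Clopper-Pearson intervals of a count ratio. They cover counting error only, because reads that carry no molecular identifier may be copies of 1 molecule. Ezh2 had more Eed than its paralog Ezh1, by 0.67 (0.36 to 0.99), and Rbbp4 less than Rbbp7 (log2 ratio -0.52, -0.86 to -0.19).

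In the EedcKO Eed library the members lay close to input. Only Rbbp4 was at least 2-fold above it (2.34-fold, log2 interval 0.40 to 2.25), against 5.16% of the tested windows, and Phf1 stood just under that size at 0.99. The median over the 10 members was 0.42. Ezh2 went to 44 Eed counts beside 29 in EedcKO input, Suz12 to 46 beside 24, and Rbbp7 to 20 beside 16. Ezh1 held 41 beside 15, Rbbp4 51 beside 14 and Eed 40 beside 19. Every core gene was thus below its wild type Eed count, and the EedcKO input held 14 to 29 counts at them. Phf1 held 73 beside 24 in input and Phf19 53 beside 27. Mtf2 held 40 beside 19 and Jarid2 32 beside 29. In EedcKO, where the counts were lower, no neighbouring members in the order of counts differed beyond counting error. Members further apart in that order could differ. Rbbp4 stood above Rbbp7 by 1.35 (0.58 to 2.17), opposite in sign to wild type.

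**Figure D1:**
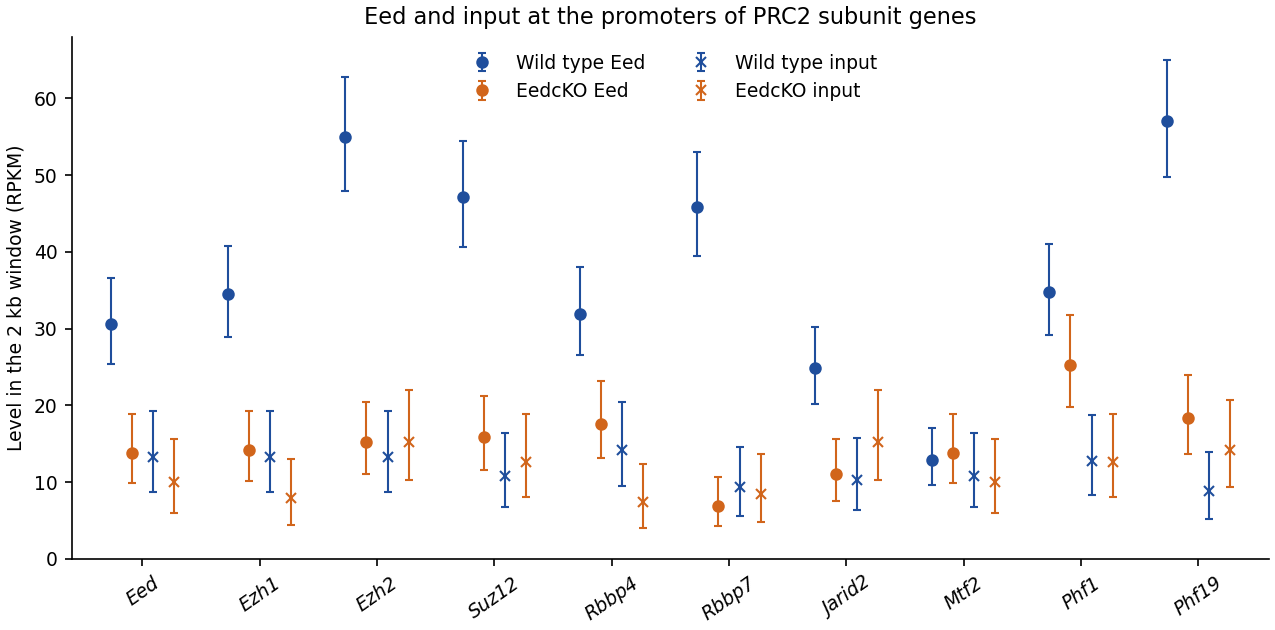
Level of Eed (circles) and input (crosses) in RPKM at the 2 kb window of each member, in wild type (blue) and EedcKO (orange), 1 library each, with bars for exact 95% Poisson intervals of the count. Wild type Eed stands above the other 3 libraries at 9 of the 10 genes, and at Mtf2 all 4 lie close together.

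Set against wild type, Eed was at least 2-fold lower in EedcKO at 9 of 10 members, against 30.0% of the tested windows. The relative log2 ratio of EedcKO to wild type had a median of -2.07. It was lowest at Rbbp7 (-3.53, interval -4.36 to -2.94), which lay at percentile 0.389 of the tested windows. Ezh2 (-2.70, -3.24 to -2.26), Phf19 (-2.49, -2.98 to -2.08) and Suz12 (-2.42, -2.95 to -1.98) followed. Ezh1 had -2.14, Jarid2 -2.01, Rbbp4 -1.72 and Phf1 -1.34, and Eed itself was 4.01-fold lower. Mtf2, the member with the least Eed in wild type, had -0.79 (-1.42 to -0.16). The median window itself was 0.88 higher in EedcKO on the log2 scale by library totals. Without removing that shift 7 of 10 members were 2-fold lower, Phf1 had -0.45, Rbbp4 -0.84, and Mtf2 turned to 0.09. With input subtracted 7 of 10 were lower, and Mtf2 had 0.69.

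Active promoters had a similar difference. At the 5683 windows with a wild type H3K27ac summit 69.6% were lower, with a median of -1.64, and of 20 housekeeping genes 13 were (median -1.44). These values do not show a difference particular to PRC2 genes. At the Hox genes, known PRC2 targets, the difference was smaller. Of 39 Hox genes 27 were at least 2-fold above input in wild type (median 2.33). In EedcKO against wild type 23 were lower and 5 higher, with a median of -1.14 (-0.26 by library totals). In EedcKO 11 of the 39 were at least 2-fold above input. Of 5 other PRC2 genes 4 were measured, and all 4 were lower. They were Lcor (250 to 39 counts, -3.07), Epop (299 to 57, -2.80), Lcorl (198 to 46, -2.51) and Aebp2 (76 to 39, -1.38). Of 20 genes of PRC1, the complex that ubiquitinates histone H2A, 18 were lower (median -2.25). Bmi1 went from 293 to 43 counts, its partner Rnf2, the ubiquitin ligase, from 224 to 34, and Pcgf5 from 332 to 60. Among enzymes that remove methyl or add acetyl groups at H3K27, the acetyltransferase genes Ep300 (183 to 43) and Crebbp (199 to 52) and the demethylase gene Kdm6a (136 to 35) were lower. The other demethylase gene, Kdm6b, was higher in EedcKO (9 to 53 counts, relative log2 ratio 1.88, 1.09 to 3.33). The lists were chosen with earlier results of these libraries known, so their direction is no independent support.

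Peak summits placed Eed beside the start site. A wild type Eed summit lay within 1 kb of the start at 9 of 10 members, against 29.1% of all windows. Of the windows with a wild type H3K27ac summit, 88.8% had a wild type Eed summit. It lay at -30 bp at Phf19, and downstream of the start by 12 bp at Phf1, 83 bp at Ezh1, 166 bp at Mtf2, 228 bp at Rbbp4 and 246 bp at Suz12. At Ezh2, Rbbp7 and Eed it lay further from the annotated start, 440, 644 and 664 bp downstream. The RefSeq start of Ezh2 lies 311 bp downstream of the annotated one, so the Ezh2 summit was nearer to it. The Jarid2 summit lay 1599 bp from the annotated start, which is 299 bp downstream of the first RefSeq start and at -198 bp from the second. The authors' score, on a −log10 scale, was highest at Suz12 (114), above 99.9% of the summits of its list, and lowest at Mtf2 (15.8). An EedcKO Eed summit lay within 1 kb at 9.40% of all windows and at 23.7% of those with a wild type H3K27ac summit. In that list 4 members had a summit within 1 kb (Eed, Ezh1, Phf1 and Phf19). Their scores ran from 3.58 to 4.08, near the median of that list, 3.61.

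RNA-Pol2 ordered the members in another way. In wild type Rbbp4 held 191 counts, above every other member, Phf1 96, Ezh2 93, Rbbp7 90 and Eed 89. Suz12 held 71, Mtf2 68, Phf19 66, Ezh1 35 and Jarid2 23. At least 2-fold above IgG were 6 of 10 members (Rbbp4, Rbbp7, Mtf2, Phf1, Eed and Suz12), against 15.3% of the tested windows and 61.4% of those with a wild type H3K27ac summit. Rbbp4 was highest at 3.15 (2.47 to 4.21), above 99.8% of the tested windows. Its window shares most of its length with that of Zbtb8os, which held 200 counts. Ezh2 just missed 2-fold with 0.92, Jarid2 had 0.33, Phf19 -0.04 and Ezh1 -0.30. Phf19 held 45 IgG counts and Ezh1 29, beside 10 to 32 at the other members. By library totals 5 of 10 members were 2-fold above IgG. Ezh2 stood above Ezh1 by 1.41 (0.83 to 2.01) and Rbbp4 above Rbbp7 by 1.09 (0.72 to 1.46).

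In EedcKO every member had more RNA-Pol2 counts than in wild type. Rbbp4 held 463, Ezh2 261, Eed 246, Phf1 244, Suz12 241 and Rbbp7 217. Phf19 held 139, Mtf2 134, Ezh1 84 and Jarid2 75. Rbbp4 came first and Ezh1 and Jarid2 last in both genotypes, and the EedcKO library was the deeper one (3842779 against 2482297 counts). The nearest EedcKO RNA-Pol2 summit at Jarid2 lay 1614 bp downstream of the annotated start, outside the counted window. Of the 10 members 9 were at least 2-fold above IgG, and Phf19 had 0.83. So were 23.4% of the tested windows, 85.0% of those with a wild type H3K27ac summit and 19 of 20 housekeeping genes. By library totals 7 of 10 members were. Ezh2 stood above Ezh1 by 1.64 (1.28 to 2.01) and Rbbp4 above Rbbp7 by 1.09 (0.86 to 1.33), close to the wild type values. EedcKO IgG had a like step from Ezh1 to Ezh2, 1.58 (0.61 to 2.66) on 12 and 36 counts, and wild type IgG 0.14. Over IgG, EedcKO RNA-Pol2 was nearly equal at both, 2.15 at Ezh2 and 2.03 at Ezh1.

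Relative to the median window, RNA-Pol2 was at least 2-fold higher in EedcKO at 8 of 10 members, against 12.2% of the tested windows. The median was 1.08 and the range 0.75 to 1.52. Suz12 was highest (1.52, 1.16 to 1.95), above 98.6% of the tested windows, followed by Jarid2 (1.41, 0.80 to 2.23), Ezh2 (1.25) and Eed (1.23). Phf1 had 1.11, Rbbp4 1.05, Rbbp7 1.04 and Ezh1 1.01, all close to the 2-fold line. Phf19 had 0.84 and Mtf2 0.75. Active promoters moved alike. Windows with a wild type H3K27ac summit had a median of 1.01, with 51.1% higher, and housekeeping genes 1.02, with 11 of 20 higher. By library totals alone 1 of 10 members, Suz12, was 2-fold higher, and the 10 log2 ratios ran from 0.34 to 1.11. The count of 8 rests on values near the line, and with IgG subtracted it was 5, with Mtf2 at -0.22.

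**Figure D2:**
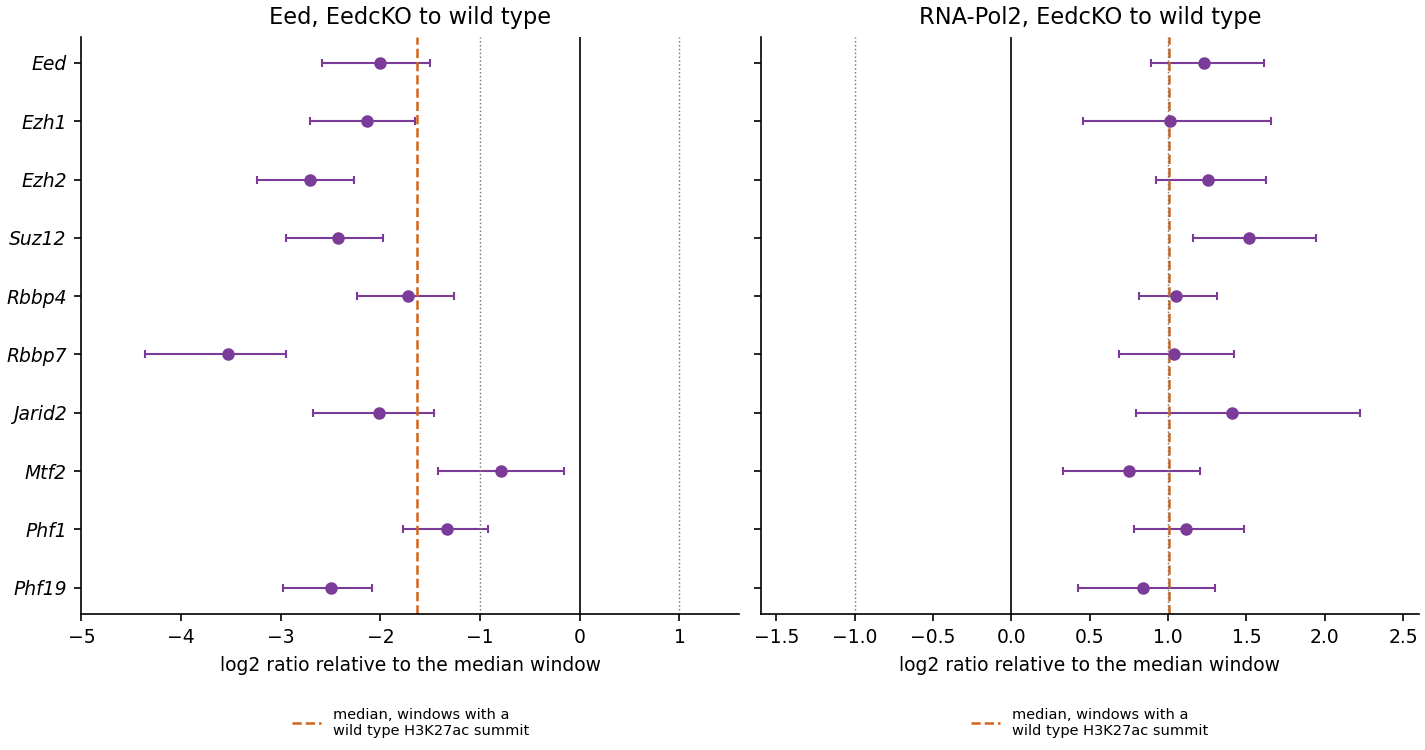
Log2 ratio of EedcKO to wild type relative to the median window, for Eed (left) and RNA-Pol2 (right), with exact 95% intervals for counting error, dotted lines at 2-fold and a dashed line at the median of the 5683 windows with a wild type H3K27ac summit. Eed lies left of the 2-fold line at 9 of 10 genes, and RNA-Pol2 values gather around the dashed line at 1.01.

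Other Polycomb genes had similar RNA-Pol2 ratios. Of 20 PRC1 genes 10 were higher, with a median of 0.59 by library totals against 0.67 at the members. Among them were Bmi1 (48 to 125 counts, 1.13) and Pcgf5 (41 to 132, 1.42). Of the 4 other PRC2 genes 1 was, Epop (47 to 114, 1.03). Hox genes, silenced in the forebrain, had a median of -0.08 (-0.49 by library totals), with 0 of 39 higher.

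RNA-Pol2 summits followed the counts. In wild type, 4.92% of all windows had one within 1 kb, and 34.3% of those with a wild type H3K27ac summit. Of the members only Rbbp4 did, at -376 bp on the side of Zbtb8os. In EedcKO 9 of 10 members had one, against 19.7% of all windows and 88.8% of those with a wild type H3K27ac summit. The EedcKO RNA-Pol2 summit lay at -16 bp at Suz12 and -27 bp at Eed. Downstream it lay 85 bp away at Rbbp7, 112 bp at Rbbp4, 129 bp at Ezh2 and 156 bp at Mtf2. Ezh1 had it at 172 bp, Phf1 at 173 bp and Phf19 at 933 bp. The position at Ezh2 is upstream of its RefSeq start. At Jarid2 it lay 314 bp downstream of the first RefSeq start and at -183 bp from the second. The EedcKO list held 25930 summits and the wild type list 3716. Cut to the length of the shorter list by score, the EedcKO list had a summit at 5 of 10 members.

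**Figure D3:**
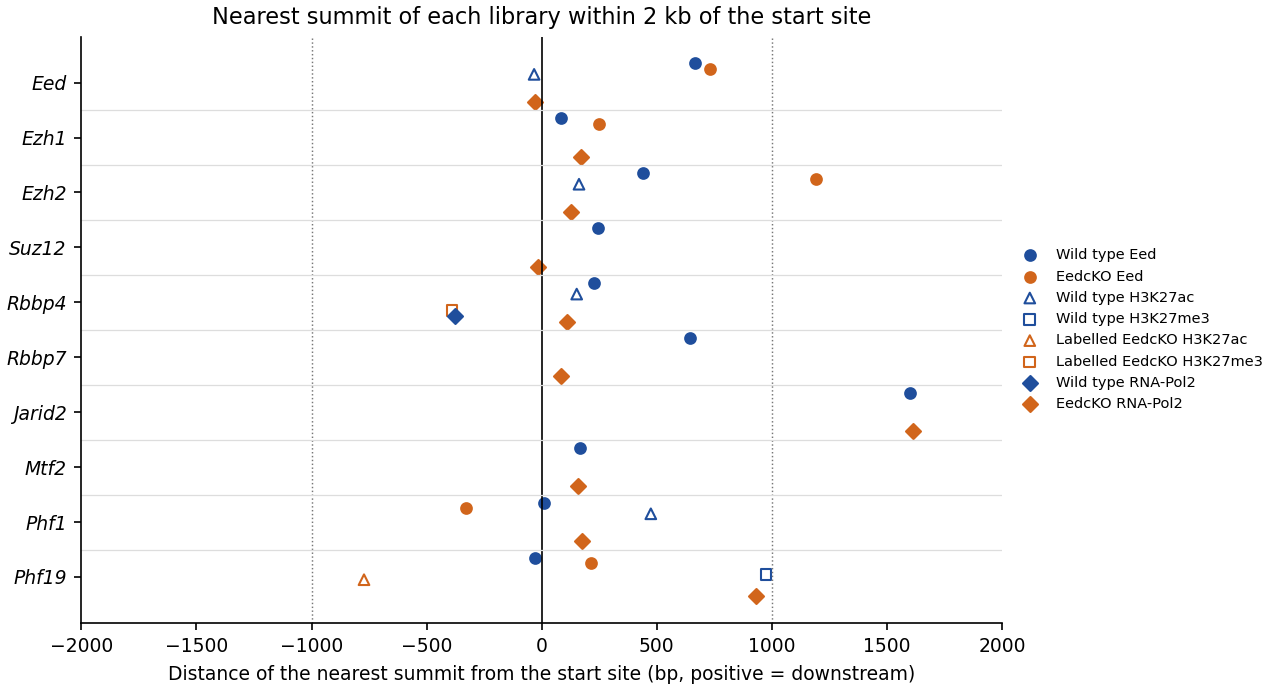
Distance in bp of the nearest summit of each antibody library from the annotated start of each member (positive is downstream), within 2 kb, in wild type (blue) and EedcKO (orange). Dotted lines mark 1 kb. Wild type Eed and EedcKO RNA-Pol2 summits stand within 1 kb of the start at 9 genes each, EedcKO Eed summits at 4, and at Jarid2 the first pair lie further downstream, at 1599 and 1614 bp.

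H3K27ac in wild type marked most members. At least 2-fold above IgG were 8 of 10, against 23.3% of the tested windows (17 of 20 housekeeping genes). Rbbp4 had 2.90, Mtf2 2.76, Eed 2.56, Rbbp7 2.06, Jarid2 1.99, Phf1 1.96, Ezh2 1.73 and Suz12 1.27. Ezh1 (0.25) and Phf19 (0.37) were the exceptions, and by library totals both lay just under 0, at -0.14 and -0.02, and Suz12 had 0.87. Eed held 130 wild type H3K27ac counts, the most of the 10, Ezh2 114 and Rbbp4 111. Phf1 held 85, Mtf2 79, Phf19 and Rbbp7 61 each, Jarid2 54, Suz12 52 and Ezh1 36. No neighbours in this order differed beyond counting error, but Ezh2 stood above Ezh1 by 1.66 (1.11 to 2.25). Summits within 1 kb lay at 4 members, against 10.3% of all windows. They were at -33 bp at Eed and 152, 162 and 474 bp downstream at Rbbp4, Ezh2 and Phf1. The one at Ezh2 lies upstream of its RefSeq start.

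By counts, H3K27me3 in wild type was low at all members but Phf19. Phf19 held 150 counts, and the other 9 held 24 (Mtf2 and Rbbp7) to 53 (Ezh1). The step from Phf19 to Ezh1 had an interval from 1.04 to 1.98 on the log2 scale. At least 2-fold above IgG were 4 of 10 members, against 19.1% of the tested windows and 44.0% of those with a wild type H3K27ac summit. They were Jarid2 (1.80), Phf19 (1.59), Rbbp4 (1.58) and Mtf2 (1.12). Phf19 also held the most wild type IgG counts of the members, 45, so over IgG it did not stand apart. By library totals none was. At the 39 Hox genes, known PRC2 targets, the median count was 1384 and all were above 2-fold. Of the other Polycomb genes Cbx8, a PRC1 gene, held 1086 H3K27me3 counts, Epop 738, Bmi1 296 and Pcgf5 294. The only member with an H3K27me3 summit within 1 kb was Phf19, 975 bp downstream, against 6.40% of all windows. Of those with a wild type H3K27ac summit 11.8% had one. Gm13448, whose window overlaps that of Phf19 on the downstream side, held 127 counts.

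The library labelled EedcKO H3K27ac resembled wild type H3K27me3 at these genes. Phf19 held 288 counts there, and the other 9 held 16 (Rbbp7) to 54 (Phf1). The step from Phf19 to Phf1 was 2.42 (1.99 to 2.86). At least 2-fold above EedcKO IgG were 3 of 10 members, against 14.5% of the tested windows (Phf19 2.62, Ezh1 1.99 and Phf1 1.38). By library totals Phf19 alone was. Ezh1 held 12 EedcKO IgG counts, the fewest of the members. A summit within 1 kb lay at 1 member, Phf19, at -772 bp, against 5.92% of all windows. The Hox genes had a median of 1804 counts in this library.

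The library labelled EedcKO H3K27me3 resembled the marks of active promoters. Rbbp4 held 119 counts, Phf1 81, Eed 79, Phf19 66, Suz12 57 and Rbbp7 56. Mtf2 held 50, Ezh2 46, Ezh1 28 and Jarid2 24. At least 2-fold above EedcKO IgG were 6 of 10 members (Phf1, Rbbp4, Mtf2, Suz12, Ezh1 and Rbbp7), against 7.78% of the tested windows and 26.1% of those with a wild type H3K27ac summit. Eed missed that size with 0.64, and its window held 50 EedcKO IgG counts, the most of the members. A summit within 1 kb lay at 1 member, Rbbp4, at -389 bp, close to the wild type RNA-Pol2 summit at -376 bp. Of all windows 1.18% had one, and of those with a wild type H3K27ac summit 8.92%. The list held 671 summits in all, and the Hox genes had a median of 23 counts.

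**Figure D4:**
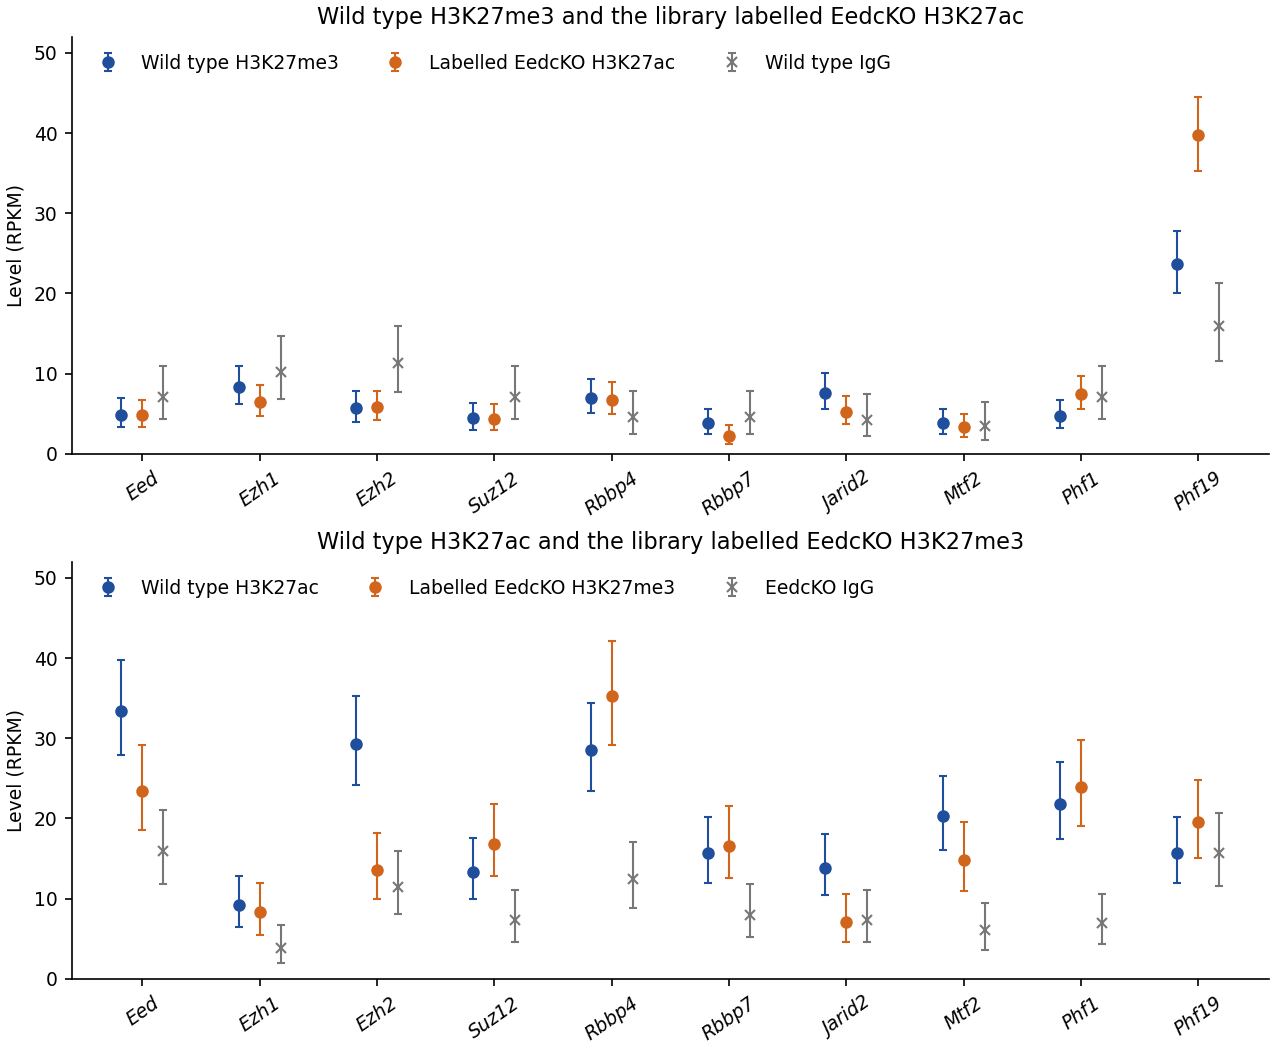
Level in RPKM at each member in the histone libraries, with wild type H3K27me3 beside the library labelled EedcKO H3K27ac (top) and wild type H3K27ac beside the library labelled EedcKO H3K27me3 (bottom), with exact 95% Poisson intervals and 1 IgG library per panel (crosses). IgG is the wild type library in the top panel and the EedcKO library in the bottom panel. In the top panel Phf19 has the highest level in both histone libraries and also in wild type IgG. The other 9 genes lie near that IgG. In EedcKO IgG, Eed held 50 counts and Phf19 49.

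Taken by label, H3K27me3 was at least 2-fold higher in EedcKO at 6.80% of the tested windows. Of those with a wild type H3K27ac summit 16.4% were higher, and of the 10 members 4 were. They were Rbbp4 (44 to 119 counts, 1.41), Phf1 (30 to 81, 1.37), Eed (31 to 79, 1.29) and Rbbp7 (24 to 56, 1.14). Phf19 was lower (150 to 66, -1.12), and Jarid2 (-0.94) and Ezh1 (-0.87) lay below 0 without reaching that size. By library totals 7 members were higher and none was lower, with Phf19 at -0.27, Jarid2 at -0.09 and Ezh1 at -0.02. Taken by label, H3K27ac was at least 2-fold lower at 4 of 10, against 11.7% of the tested windows and 46.3% of those with a wild type H3K27ac summit. They were Eed (130 to 35, -1.64), Rbbp7 (61 to 16, -1.55), Mtf2 (79 to 24, -1.42) and Ezh2 (114 to 42, -1.21). Phf19 was higher (61 to 288, 2.35). By library totals 8 were lower, and Phf19 had 1.31.

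With both EedcKO histone libraries exchanged, fewer members reached that size. The library labelled EedcKO H3K27ac against wild type H3K27me3 was at least 2-fold higher at 1 of 10 members, Phf19 (1.02, 0.74 to 1.33), against 2.55% of the tested windows. By library totals Phf19 had 0.73, and no member was 2-fold higher. Phf1 had 0.89 (0.27 to 1.63), and the other 8 lay between -0.38 at Rbbp7 and 0.31 at Ezh2 with intervals that include 0. The library labelled EedcKO H3K27me3 against wild type H3K27ac was at least 2-fold lower at 2 of 10, against 6.17% of the tested windows and 17.9% of those with a wild type H3K27ac summit. They were Ezh2 (114 to 46 counts, -1.19, -1.75 to -0.71) and Jarid2 (54 to 24, -1.03, -1.84 to -0.36). By library totals Jarid2 had -0.92, which left Ezh2 (-1.08). Eed had -0.62 (130 to 79, -1.05 to -0.21) and Mtf2 -0.56 (79 to 50, -1.11 to -0.04). The remaining 6 lay between -0.26 at Ezh1 and 0.21 at Suz12, with intervals that include 0. The exchange turned the sign of the H3K27me3 ratio at Rbbp7 and Phf19, and that of the H3K27ac ratio at 4 members. The latter went from -0.97 (-1.56 to -0.55) to 0.19 at Rbbp4, from -0.46 to 0.21 at Suz12, from -0.46 to 0.02 at Phf1 and from 0.55 to -0.26 at Ezh1. Which library holds which mark was not tested by other means. Both exchanged values rest on the same pair of libraries as the values by label.

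Across the 12 libraries most members had a common profile. The correlation of library-centred log2 levels had a median of 0.81 over the pairs of members. The most alike were Ezh2 and Suz12 (0.955), then Suz12 and Phf1 (0.955) and Eed and Rbbp7 (0.948). Phf19 stood apart, with a median of 0.578 with the other members, and its pair with Mtf2 was the least alike (0.391). Jarid2 (0.720) and Ezh1 (0.756) followed. The points are single libraries of 4 targets and 2 controls, so these values describe the profile and carry no test. No such median was computed over pairs of other promoters, so they do not show a profile particular to PRC2 genes. Among 17274 other windows, those most like the Eed gene were Ercc8 (0.987), a gene of transcription-coupled DNA repair, Stam2, Megf9, Zfand3 and Zfp219. Those most like the median profile of the members were Supt5 (0.994), an RNA polymerase II elongation factor gene, Zdhhc8, Pspc1, Ttc19 and Krit1 (0.990).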

How the data were processed

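Each of the 12 libraries, 1 per genotype and target, was read from its own deposited promoter table and, for the 8 antibody libraries, its summit list. Per the submitters' processing notes, the build was mm10 and the tools included MACS2 2.2.7.1 and Bowtie2 2.4.1, besides ChIPseeker 1.22.1 and deepTools 3.4.0. Settings and filters: not given in the sources used here. Promoter tables as deposited are named for RPKM but hold whole-number counts with differing totals, and were treated as counts. The authors' summit score is a −log10 of a p or q, and which of both is not stated. All scores are at least 2.

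RPKM was computed here from each count, the window's length and the library's summed promoter counts. Log2 ratios used a pseudocount of 0.5 RPKM, over windows with a mean of at least 1 RPKM in both libraries, minus their median, and a size of 1 (2-fold) was the rule for a call. The pseudocount shrinks ratios of low windows. With 1 library a group no test was possible. Intervals are exact at 95% and cover counting error only. Depth limits precision: members held 10 to 463 counts. The scripts (Python 3.11.15, pandas 2.3.3, scipy 1.17.1) were tested on simulated data; TMM factors came from edgeR 4.0.16. Alternatives changed the scaling, pseudocount, filter, control, histone label and summit distance. In the table labelled EedcKO H3K27ac, 27 symbols differed from the other tables and were matched by Ensembl identifier. RefSeq promoters (GRCm38.p6) matched all 10 members by symbol.

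The members, gene lists, motifs and alternatives were chosen with earlier results of these data known. All 10 members are named in every library; other genes named are the 5 most alike to Eed and to the median profile, up to 3 per list with the largest absolute Eed ratio, and genes with overlapping windows. Kdm6b, Aebp2 and Cbx8 fall outside that rule and were chosen after their values were seen. One further progenitor marker is not reported here.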

Additional observations from a re-analysis of the deposited data

Results flagged for a closer look

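In 6 results the antibody-to-control ratio of a member lay above 0 in 1 genotype and below 0 in the other. With 1 library a genotype the difference was not tested. Eed over input went from 3.56 in wild type to -0.25 in EedcKO at Rbbp7 and from 2.55 to -0.43 at Jarid2. At Rbbp7 the Eed counts were 181 and 20 and the input counts 19 and 16, and at Jarid2 they were 98 and 32 beside 21 and 29.

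H3K27ac over IgG, by label, went from 2.56 to -0.33 at Eed and from 2.06 to -0.35 at Rbbp7. With the library labelled EedcKO H3K27me3 in its place, the EedcKO ratios over IgG were 0.64 and 1.11. RNA-Pol2 over IgG went from -0.30 to 2.03 at Ezh1, where IgG went from 29 to 12 counts while RNA-Pol2 went from 35 to 84. At Phf19 it went from -0.04 to 0.83, with IgG at 45 and 49 counts. The part of IgG in these results was not tested.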

How the results depend on the processing

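Of the member ratios recomputed under the alternatives, 742 stayed within the counting interval of the reported value, and 116 moved beyond it without turning a 2-fold value. Pseudocount, filter and TMM alternatives left every ratio within its interval. Of the 40 ratios of EedcKO to wild type, 33 moved by library totals and 25 with the control subtracted. With the EedcKO library of the other histone label, 15 of 20 moved and 2 reversed. Of the 80 ratios of antibody to control, 36 moved by library totals. In all 34 of 860 changed sign, 17 of them by library totals and 6 with the EedcKO library of the other histone label. Of the values that were at least 2-fold as reported 2 changed sign, the H3K27me3 ratios of Rbbp7 (-0.38) and Phf19 (1.02) with that library. That exchange left 1 member higher for H3K27me3 and 2 lower for H3K27ac. Of the 639 recomputed values whose reported interval excludes 0, 10 changed sign. Among them, with the control subtracted, were the Ezh1 H3K27me3 ratio by label (0.77) and the Mtf2 Eed ratio (0.69).

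Scaling by library totals with no median shift changed the most counts. The members 2-fold above IgG became 0 in wild type H3K27me3 and 1 in the library labelled EedcKO H3K27ac. By label 7 members were higher in H3K27me3, 8 lower in H3K27ac and 1 higher in RNA-Pol2. The RNA-Pol2 count of 8 became 4 with a pseudocount of 2 RPKM, 5 with no filter and 5 with IgG subtracted. EedcKO Eed over input gave 2 members with TMM scaling and 2 with a pseudocount of 0.1 RPKM. The library labelled EedcKO H3K27ac gave 5 over the mean of both IgG libraries. Among the 6 members whose window overlaps no other, a subset chosen after seeing the data, 0% were above input in EedcKO Eed, 16.7% above IgG in the library labelled EedcKO H3K27ac and 16.7% higher in H3K27me3 by label; these subsets hold fewer genes.

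For summits, those scoring above their list's median left 1 member in EedcKO Eed and 0 in wild type H3K27me3. Within 500 bp, 0 remained in wild type H3K27me3 and 0 in the library labelled EedcKO H3K27ac. With the longer list cut to the length of the shorter, also chosen after seeing the data, wild type H3K27me3 had 0 and EedcKO RNA-Pol2 5. Except where the construction states it, the cause was not tested. No paired analysis was possible because each genotype and target has 1 library, and for the same reason no library could be left out. IgG held 10 to 50 counts at the members, which limits what a ratio to it can show.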
